A study of Mus musculus with 29 samples.

Results

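Dagla and Mgll encode the main enzymes that make and break down the endocannabinoid 2-arachidonoylglycerol (2-AG) in the brain. They were picked by gene symbol, with earlier results of these data known. Both genes were among the 9872 genes tabulated for the amygdala, and Dagla was among the 6080 genes tabulated for the medial prefrontal cortex. Mgll was not analysed here in the prefrontal cortex, because the prefrontal tables used here hold no Mgll row.

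The libraries came from B6.Cg-Tg(Thy1-YFP)HJrs/J mice, in which the Thy1 promoter drives a yellow fluorescent protein in a subset of projection neurons. Tissue punches were dissociated, cells labelled as pyramidal neurons were sorted by flow cytometry, and ultra-low-input RNA-seq libraries were made after removal of ribosomal RNA. The mice carried the labels Res-T or Sus-T, each without or with trauma, and all 4 groups of a region shared the transgene. The labels give no age and no protocol of the trauma. The amygdala had 3 Res-T libraries without trauma, 2 Sus-T libraries without trauma, 4 Res-T libraries with trauma and 4 Sus-T libraries with trauma. The prefrontal cortex had 4, 2, 3 and 4 libraries in the same order. The series lists 29 samples, and 3 of them, marked by the submitters as removed, have no column in the tables.

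The labelled cell type was checked against marker genes. Of 9 pyramidal neuron markers, 2 had an amygdala row (Nrgn and Camk2n1) and 0 had a prefrontal row. By contrast, 15 of 15 oligodendrocyte markers had an amygdala row and 10 of 15 a prefrontal row. Oligodendrocyte markers took between 1.92% and 7.09% of the summed signal of an amygdala library. Most defining markers of the labelled cell type were thus without a row, and the libraries are called here by region and group. The deposited signal summed to between 3267967 and 4021272 per amygdala library and to between 2095138 and 2444486 per prefrontal library. The read depth behind them is not given in the sources used here. The labels do not say that libraries of a group came from separate animals, and the design text names 9 mice for the amygdala, so the p-values measure the spread between libraries only.

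2-AG is a lipid messenger made on demand in the postsynaptic membrane. Receptors coupled to Gq activate phospholipase C, which releases diacylglycerol, and diacylglycerol lipase alpha (the product of Dagla) cuts it to 2-AG. The lipid crosses the synapse backwards to presynaptic CB1 receptors and lowers transmitter release. Monoacylglycerol lipase (the product of Mgll), found in axon terminals and also in astrocytes, then cleaves it to arachidonic acid and glycerol. In the amygdala and prefrontal cortex this signal is known for its part in fear extinction and stress adaptation. RNA levels say nothing directly about the amount of 2-AG.

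Both enzymes are serine hydrolases, and the codon of the serine at the centre of the glycine-x-serine-x-glycine motif is shown here because it is what the enzymes of opposite role have in common. The stretches are coding sequence, 5′ to 3′ on the coding strand, from GENCODE M21 transcripts on GRCm38. The capitals mark the serine codon. The pattern of the motif is matched 3 times in the Dagla product, 2 times in that of Mgll and 2 times in that of Abhd12. Only 1 match per gene is shown. Daglb (diacylglycerol lipase beta), Abhd6 and Abhd12 (secondary hydrolases of 2-AG) are given for comparison.
Dagla: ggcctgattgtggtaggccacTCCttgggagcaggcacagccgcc
Mgll: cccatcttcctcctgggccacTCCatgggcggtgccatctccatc
Daglb: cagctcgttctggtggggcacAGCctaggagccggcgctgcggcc
Abhd6: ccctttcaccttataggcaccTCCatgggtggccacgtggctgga
Abhd12: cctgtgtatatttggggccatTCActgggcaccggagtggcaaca

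Dagla (ENSMUSG00000035735.10) lies on the minus strand at chr19:10245265-10304877 of GRCm38 and has 3 annotated transcripts. Its stretch is in exon 14 of 20, at chr19:10254884-10254928, and the serine is residue 472 of 1044. Mgll (ENSMUSG00000033174.17) lies on the plus strand at chr6:88724412-88828360 and has 10 annotated transcripts. Its stretch begins in exon 4 of 8 and runs across an intron, at chr6:88808121-88809353, and the serine is residue 122 of 303. The serine is residue 443 of 669 in the Daglb product, 148 of 336 in that of Abhd6 and 246 of 398 in that of Abhd12. The deposited values are sums per gene, so the transcripts cannot be told apart.

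In the amygdala, Dagla was lowest in Res-T without trauma and highest in Sus-T without trauma. The 3 Res-T libraries without trauma had Dagla signals of 38.0, 54.3 and 70.9 (mean 54.4 ± 16.4, SD, n = 3). The 2 Sus-T libraries without trauma had 202 and 232 (217 ± 21.5, SD, n = 2). With trauma, the 4 Res-T libraries had 72.9, 138, 90.5 and 67.9 (92.4 ± 32.1, SD, n = 4). These groups did not overlap without trauma, and the Res-T libraries with trauma all lay below the Sus-T libraries without trauma. The 4 Sus-T libraries with trauma had 134, 104, 145 and 62.7 (111 ± 36.8, SD, n = 4). They overlapped with Res-T with trauma and lay entirely below Sus-T without trauma.

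Mgll levels were separated by the Sus-T and Res-T labels in both trauma conditions. The 3 Res-T libraries without trauma had Mgll signals of 155, 147 and 171 (158 ± 12.2, SD, n = 3). The 2 Sus-T libraries without trauma had 390.4 and 589.7 (490.0 ± 141, SD, n = 2). Within this condition the lowest Sus-T library was above the highest Res-T library. The 4 Res-T libraries with trauma had 239, 164, 169 and 188 (189.7 ± 34.2, SD, n = 4). The 4 Sus-T libraries with trauma had 434, 338, 332 and 383 (372 ± 47.5, SD, n = 4). Every one of the 6 Sus-T libraries therefore had more Mgll signal than every one of the 7 Res-T libraries, whatever the trauma label. This was not particular to Mgll: Grm5, Dgkh, Dgkz and Homer2, described further on, were separated in the same way. For Grm5 the highest Res-T signal was 187.5 and the lowest Sus-T signal 249.5. Abhd12 and Camk2a overlapped with trauma. The share of all genes separated over both conditions was not computed.

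**Figure D1:**
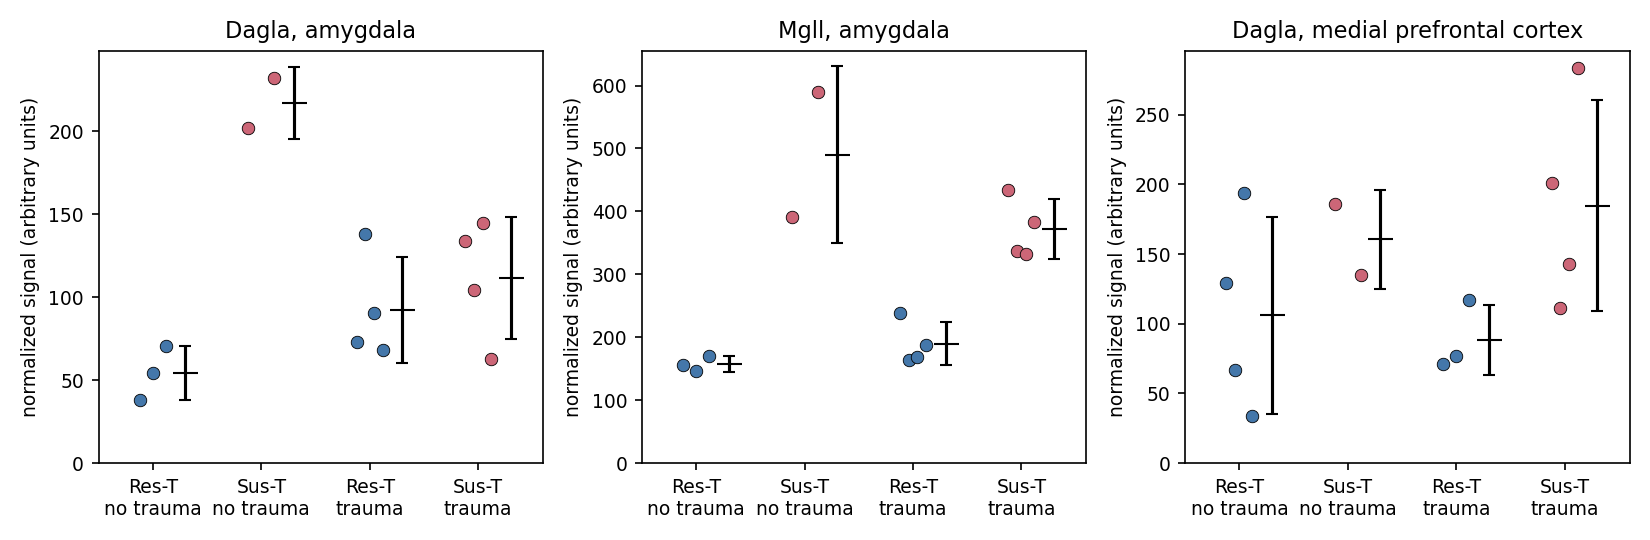
Signal of Dagla and Mgll in each library (points) with the mean of each group, by region and group. Mgll is shown for the amygdala only. Mgll of all Sus-T amygdala libraries lies above that of all Res-T amygdala libraries, and Dagla separates the labels in the amygdala without trauma.

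The order of the group means was the same for both genes. It ran from Res-T without trauma through Res-T with trauma and Sus-T with trauma to Sus-T without trauma. For Dagla the first and the second of these overlapped, as did the second and the third, while Sus-T with and without trauma did not. For Mgll there was a gap between the Res-T and the Sus-T groups, and neighbours overlapped on each side of it. Per kilobase of annotated exon (5747 bases for Dagla and 5077 for Mgll), mean Dagla signal was 9.46, 16.1, 19.4 and 37.8 in that order. Mean Mgll signal per kilobase was 31.1, 37.4, 73.2 and 96.5, so mean Mgll was above mean Dagla in every group on this scale, provided that the deposited values are not already divided by length.

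Sus-T against Res-T without trauma was the comparison in which both enzymes changed. Dagla, the synthesis enzyme, was 4.05-fold higher in Sus-T, a difference of 2.02 ± 0.40 on the log2(signal + 1) scale (SE), with a 95% interval from 1.18 to 2.86. Its limma adjusted p (Benjamini-Hochberg over all 9872 genes) was 0.00123, and the groups did not overlap. Mgll, the breakdown enzyme, was 3.04-fold higher, a log2 difference of 1.60 ± 0.24 (SE, interval from 1.09 to 2.11) with a limma adjusted p of 1.5e-04, and again without overlap. The RNAs of the synthesis and of the breakdown enzyme were thus both higher in Sus-T. Large changes were common in this comparison: 27.4% of all genes passed the same threshold, 12.4% of all genes passed it as higher in Sus-T, and 27.7% of all genes were higher without overlap. Ordered from the most positive to the most negative log2 difference, Dagla ranked 236 and Mgll 520 among all 9872 genes. The Res-T libraries without trauma stood apart in the processing described further on. The part of this in the differences was not tested.

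Marker genes of several cell types, the labelled one among them, moved with the same labels. The 15 oligodendrocyte markers together made up 6.44% of the signal in Res-T without trauma (range 6.04 to 7.09) and 2.39% in Sus-T without trauma (1.92 to 2.86). The 9 measured astrocyte markers, of 10 listed, made up 0.437% (0.345 to 0.539) and 1.56% (1.09 to 2.03). The 2 measured pyramidal neuron markers made up 0.0048% (0.00347 to 0.00574) and 0.0488% (0.0431 to 0.0546). The 3 measured microglia and macrophage markers made up 0.00735% (0.00597 to 0.00934) and 0.0247% (0.0221 to 0.0273). The 1 measured GABAergic interneuron marker made up 0.0341% (0.0319 to 0.0372) and 0.0235% (0.0225 to 0.0245). Oligodendrocyte precursor markers and endothelial and mural markers overlapped between these groups. In a fit that included the mean of the oligodendrocyte markers the difference was 3.24 ± 1.10 for Dagla (SE, limma adjusted p = 0.164). For Mgll it was 2.34 ± 0.66 (SE, limma adjusted p = 0.109). Both were larger but no longer past the threshold, with standard errors above the 0.40 and 0.24 of the main fit. The oligodendrocyte shares did not overlap between these groups, so this fit cannot separate them from the labels. In a fit that included the mean of the astrocyte markers the differences were 1.83 for Dagla (limma adjusted p = 0.0184) and 1.28 for Mgll (0.00536). The part of these cell types in the results was not tested further, and in bulk RNA fewer cells of a type and less RNA per cell cannot be told apart.

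With trauma, neither enzyme passed the test between Sus-T and Res-T, and only the Mgll groups did not overlap. Mgll was 1.97-fold higher in Sus-T (log2 difference 0.97 ± 0.19, SE, interval from 0.58 to 1.37), and the 4 Sus-T libraries all lay above the 4 Res-T libraries. Its limma adjusted p was 0.0724, above the threshold of 0.05. In this comparison 0% of genes passed (1142 of 9872 had an unadjusted p under 0.05, and the smallest adjusted p was 0.0534), and 3.46% of genes were higher without overlap. Mgll ranked 268 in the order from the most positive difference. Dagla differed by 0.26 ± 0.31 (SE, interval from -0.39 to 0.91, limma adjusted p = 0.804), with overlapping groups. Oligodendrocyte markers made up 5.24% of the signal in Res-T (4.53 to 5.72) and 4.47% in Sus-T (3.93 to 5.26), and astrocyte markers 0.664% (0.345 to 0.887) and 1.24% (0.785 to 1.65). The 2 pyramidal neuron markers made up 0.0184% (0.0126 to 0.0283) and 0.0562% (0.0265 to 0.119). The part of the pyramidal neuron markers in the Mgll values was not tested. In a fit that included the mean of the oligodendrocyte markers, the Mgll difference was 1.07 with a limma adjusted p of 0.0493. With the astrocyte markers in their place it was 0.78 with a limma adjusted p of 0.329.

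Over both trauma conditions, an exact two-sided permutation test was run for each gene with the Sus-T and Res-T labels permuted within each condition. The mean log2 difference of Mgll was 1.29 (exact permutation p = 0.00143, the smallest that the 700 arrangements can give). The Mgll groups were already known not to overlap in either condition. A p near this floor follows from that separation and adds no separate support. How many of all genes reach it was not computed. The mean log2 difference of Dagla was 1.14 (exact permutation p = 0.0286). This p rose above 0.05 when any of 8 of the 13 libraries was left out (range of p 0.00857 to 0.0857). For Mgll the range was 0.00286 to 0.00476. These are 3 tests with the prefrontal one described further on, and they were not adjusted for each other. They were added after the data had been seen.

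The trauma contrasts share their groups with the comparisons described so far. That in Res-T again holds the Res-T libraries without trauma, which stood apart in the processing. In Res-T, Dagla was 1.67-fold higher with trauma (log2 difference 0.74 ± 0.33, SE, interval from 0.04 to 1.44), but the groups overlapped and the limma adjusted p was 0.187, while 6.18% of genes passed. Mgll differed by 0.25 ± 0.20 (SE, limma adjusted p = 0.489) and also overlapped. In Sus-T, Dagla was 2.03-fold lower with trauma (log2 difference -1.02 ± 0.38, SE, interval from -1.82 to -0.23). The groups did not overlap, as for 7.77% of genes that were lower, and the limma adjusted p was 0.269 where 0.0304% of genes passed. Mgll in Sus-T differed by -0.38 ± 0.23 (SE, limma adjusted p = 0.561), and by -0.67 to -0.08 with 1 library left out.

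The trauma effect on Dagla differed between the labels in the joint fit. The effect in Sus-T minus the effect in Res-T was -1.76 ± 0.50 (SE, interval from -2.82 to -0.70), with a limma adjusted p of 0.0448, in a test that 6.74% of genes passed. The call sat close to the threshold. It was lost (adjusted p up to 0.125) when any of 10 of the 13 libraries was left out. These were all 5 libraries without trauma, Res-T with trauma replicates 1, 2 and 3, and Sus-T with trauma replicates 2 and 4. The estimate itself stayed between -1.97 and -1.51. For Mgll the same difference was -0.63 ± 0.31 (SE, interval from -1.27 to 0.01, limma adjusted p = 0.222), and between -0.92 and -0.33 with 1 library left out.

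**Figure D2:**
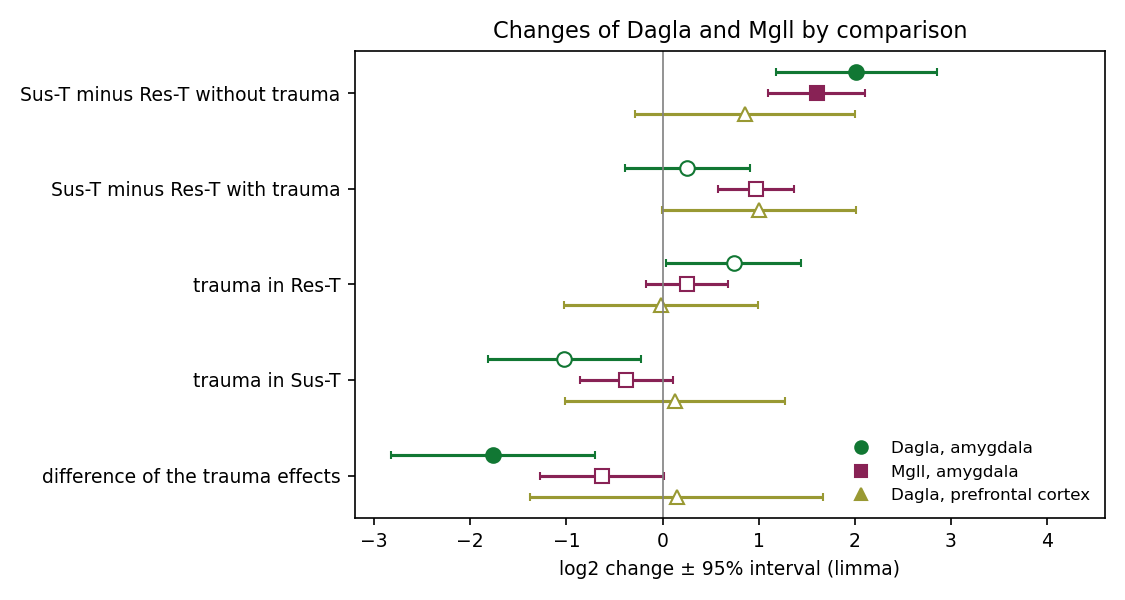
Log2 difference of Dagla and Mgll with its 95% interval in the 5 comparisons of each region; filled points have a limma adjusted p under 0.05 and open points do not. The filled points are Dagla and Mgll in the amygdala without trauma, and the difference of the trauma effects for Dagla.

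Synthesis was set against breakdown within each library as log2 Dagla minus log2 Mgll, a value from which any factor common to both genes of a library cancels. In Res-T without trauma it was -2.002, -1.42 and -1.26 (mean -1.56 ± 0.39, SD, n = 3), and in Sus-T without trauma -0.95 and -1.34 (-1.14 ± 0.28, SD, n = 2). In Res-T with trauma it was -1.70, -0.24, -0.89 and -1.45 (-1.07 ± 0.65, SD, n = 4). In Sus-T with trauma it was -1.69, -1.69, -1.19 and -2.59 (-1.79 ± 0.58, SD, n = 4). All 13 values were negative, so each library held more Mgll than Dagla signal, and the groups overlapped in every comparison. The mean Mgll signal per unit of Dagla signal was 3.07, 2.24, 2.27 and 3.72 in the same order of groups.

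None of the 4 comparisons of this balance passed an exact two-sided permutation test. Sus-T exceeded Res-T by 0.42 without trauma (exact p = 0.4, smallest possible 0.1) and was lower by 0.72 with trauma (difference -0.72, p = 0.2, smallest possible 0.0286). With trauma minus without, it differed by 0.49 in Res-T (exact p = 0.343) and by -0.65 in Sus-T (exact p = 0.267, smallest possible 0.0667). After Benjamini-Hochberg adjustment over the 4 comparisons each exact p was 0.4. Over both conditions the difference between Sus-T and Res-T was -0.15 (exact permutation p = 0.633). Leaving out 1 library moved these differences to between 0.19 and 0.61 without trauma, -0.93 and -0.44 with trauma, 0.21 and 0.70 for trauma in Res-T, -0.85 and -0.38 in Sus-T, and -0.26 and -0.01 over both conditions. The samples are too few to show that the balance was alike.

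**Figure D3:**
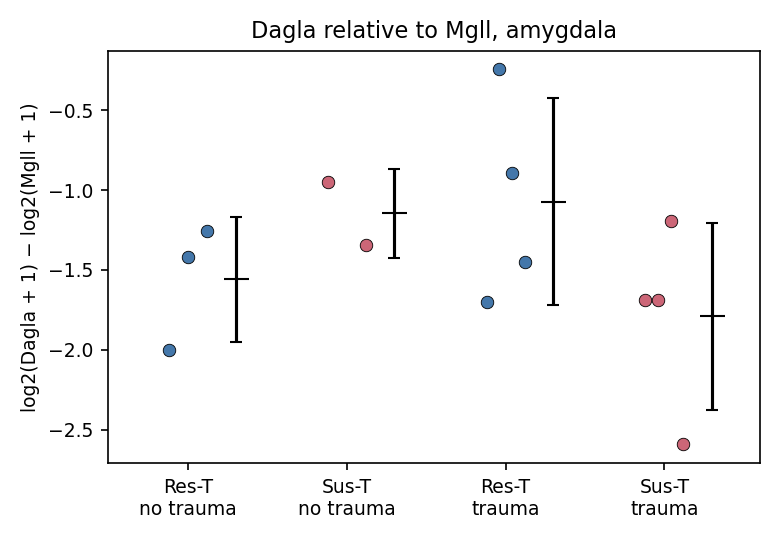
Log2 Dagla minus log2 Mgll in each amygdala library (points) with the group means. All points lie below 0 and the 4 groups overlap.

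Within groups the genes were not seen to move together. The deviations of their log2 values from the group means gave a Pearson r of -0.14 (permutation p = 0.620) and a Spearman rho of -0.20 (p = 0.528) over 13 libraries, by exact enumeration of 6912 arrangements within groups. Without the 2 libraries farthest from the median of Dagla, Pearson r was -0.31 (exact permutation p = 0.441) and rho was -0.46 (p = 0.247).

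In the prefrontal cortex Dagla varied widely within groups. The 4 Res-T libraries without trauma had Dagla signals of 129, 67.0, 194 and 34.0 (106 ± 70.7, SD, n = 4), and the 2 Sus-T libraries without trauma had 186 and 135 (160.5 ± 35.6, SD, n = 2). The 3 Res-T libraries with trauma had 71.0, 76.8 and 117 (88.3 ± 25.1, SD, n = 3). The 4 Sus-T libraries with trauma had 201, 111, 143 and 283 (185 ± 75.6, SD, n = 4). The group means kept Sus-T above Res-T in each condition, but all groups overlapped with their neighbours in order. Per kilobase of exon the mean signal was 18.5, 27.9, 15.4 and 32.1 in Res-T and Sus-T without trauma, then Res-T and Sus-T with trauma.

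No prefrontal comparison of Dagla passed the test. Sus-T minus Res-T was 0.86 ± 0.54 without trauma (SE, interval from -0.29 to 2, limma adjusted p = 0.598), where 0% of the 6080 genes passed and 630 had an unadjusted p under 0.05. It ran from 0.41 to 1.24 with 1 library left out. With trauma it was 1.003 ± 0.48, or 2.004-fold (SE, interval from -0.01 to 2.01, limma adjusted p = 0.142), in a comparison that 23.0% of genes passed. Fitted on the compared groups only, the same difference had a limma adjusted p of 0.034. The exact permutation test over both conditions gave a difference of 0.93 with p = 0.0571 (525 arrangements). The exact p fell under 0.05 without Res-T without trauma replicate 3 (p = 0.02), and without Res-T with trauma replicate 4 or Sus-T with trauma replicate 2 (p = 0.04 each).

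Dagla in the prefrontal cortex showed differences near 0 with wide intervals between libraries with and without trauma. The limma difference was -0.02 ± 0.48 in Res-T (SE, adjusted p = 0.989) and 0.13 ± 0.54 in Sus-T (SE, adjusted p = 0.9999). The difference between these effects was 0.15 ± 0.72 (SE, adjusted p = 0.970). In each of these comparisons 0% of genes passed. Prefrontal oligodendrocyte markers (10 of 15 with a row) made up 4.77% of the signal in Res-T without trauma (range 3.15 to 8.56) and 3.08% in Sus-T without trauma (2.46 to 3.70). With trauma they made up 6.32% in Res-T (5.18 to 7.27) and 3.13% in Sus-T (2.59 to 4.41). The 4 measured astrocyte markers made up 0.218% (0.144 to 0.310), 0.277% (0.249 to 0.306), 0.220% (0.101 to 0.384) and 0.250% (0.117 to 0.431) in that order. With the oligodendrocyte covariate the Dagla difference between Sus-T and Res-T was 0.29 with trauma (limma adjusted p = 0.871) and 0.48 without trauma (0.856). With the astrocyte covariate it was 0.93 (limma adjusted p = 0.144) and 0.67 (0.704). The regions were tabulated separately and were not tested against each other.

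The other endocannabinoid genes were taken from 9 lists of 46 genes in all, of which 30 had an amygdala row and 17 a prefrontal row. In Sus-T against Res-T without trauma in the amygdala, 14 of the 30 were higher and 1 was lower by the limma threshold, beside 27.4% of all genes in either direction. Their median log2 difference was 0.70, and that of all genes was -0.03. This comparison holds the Res-T libraries that stood apart in the processing. The count of 15 was 9 without Sus-T without trauma replicate 1 or replicate 3, 8 with the astrocyte covariate and 1 with the oligodendrocyte covariate. With trauma the count was 0 and the median 0.21, and the count was 2 without Sus-T with trauma replicate 4.

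Among the genes of 2-AG metabolism itself, the secondary hydrolase Abhd12 rose with Mgll. Its signal was 341 ± 53.8 (SD, n = 3) in Res-T and 684 ± 61.1 (SD, n = 2) in Sus-T without trauma, a 2.02-fold difference (log2 1.01 ± 0.21, SE, limma adjusted p = 0.00184). With trauma it was 393 ± 37.7 and 518 ± 77.6 (SD, n = 4 each, log2 0.39, limma adjusted p = 0.362). Abhd6, which hydrolyses 2-AG on the postsynaptic side, differed by 0.54 without trauma (limma adjusted p = 0.342). Daglb, the lipase isoform known best from macrophages and microglia, differed by 0.48 (limma adjusted p = 0.259).

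Of the genes that supply diacylglycerol, 4 of 6 were higher, and of those that anchor or regulate the Dagla product, 2 of 3 were higher. Of all genes, 12.4% were higher and 27.4% passed in either direction. Grm5, the metabotropic glutamate receptor that starts 2-AG synthesis through Gq, had a signal of 72.0 ± 13.2 (SD, n = 3) in Res-T and 304 ± 43.7 (SD, n = 2) in Sus-T without trauma (4.21-fold, limma adjusted p = 1.1e-04). Of its list of 6 measured genes, phospholipases Plcb1 (log2 1.22, limma adjusted p = 0.00354) and Plcb3 (1.19, 0.0386) and the G protein Gna11 (0.94, 0.0108) were also higher. Camk2a, the kinase subunit known to phosphorylate diacylglycerol lipase alpha, was 67.0 ± 11.03 (SD, n = 3) against 2311 ± 926 (SD, n = 2), a log2 difference of 5.04 (limma adjusted p = 4.3e-05). Homer2, a scaffold of the receptor and lipase complex, was higher by 2.79 (limma adjusted p = 0.0202), and Homer1 differed by 0.95 (adjusted p = 0.142). Camk2a is also a marker of excitatory neurons, and the pyramidal neuron markers given earlier were higher in Sus-T without trauma too. The part of excitatory neurons in the Camk2a difference was not tested.

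Diacylglycerol kinases draw the substrate of Dagla away to phosphatidic acid. Of 7 measured, 3 passed the threshold, beside 27.4% of all genes: Dgkh (log2 2.18, limma adjusted p = 1.1e-04) and Dgkz (1.65, 5.3e-05) were higher in Sus-T without trauma and Dgka was lower (-0.97, 0.0456). Sgip1, which keeps the CB1 receptor at the surface, was higher by 0.85 (limma adjusted p = 0.0171), and its neighbour on the list, the CB1-interacting protein gene Cnrip1, differed by 0.26. The receptor genes Cnr1 and Cnr2 had no row and were not analysed here. For anandamide, the other main endocannabinoid, Naaa (an acid amidase) was higher by 1.45 (limma adjusted p = 0.00629). Faah, the main anandamide hydrolase, differed by -0.71 (adjusted p = 0.243), and the synthesis gene Napepld by -0.66 (adjusted p = 0.148). The carrier gene Scp2 was higher by 0.87 (limma adjusted p = 0.0483).

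In Res-T amygdala, 3 of the 30 genes were higher with trauma than without, beside 3.30% of all genes higher and 6.18% in either direction. They were Grm5 (log2 1.08, limma adjusted p = 0.0189), Dgkz (0.66, 0.0382) and Camk2a (2.70, 0.01). The count was 1 without Res-T without trauma replicate 1, 2 or 3. In Sus-T the count was 0. For the difference of the trauma effects, 6.74% of all genes passed in either direction and 1.98% as lower in Sus-T. The trauma effects differed between the labels for 3 of the 30 genes, each lower in Sus-T: Dagla, Dgkz (-1.20, limma adjusted p = 0.016) and Camk2a (-3.10, 0.0236). This count was 0 without Sus-T without trauma replicate 1, and 1 without Sus-T without trauma replicate 3, Res-T without trauma replicate 1, Res-T with trauma replicate 1 or Sus-T with trauma replicate 2.

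In the prefrontal cortex 4 of the 17 measured genes were higher in Sus-T with trauma and 0 were lower. Of all genes, 14.0% were higher and 23.0% passed in either direction. Abhd12 had a signal of 294 ± 73.1 (SD, n = 3) in Res-T and 489 ± 105 (SD, n = 4) in Sus-T (1.66-fold, limma adjusted p = 0.044). The Gq subunit gene Gnaq (log2 0.98, limma adjusted p = 0.00745), Homer1 (0.88, 0.0159) and Naaa (2.12, 0.0169) were the others. The count of 4 was 1 without Res-T with trauma replicate 1 and 2 without Sus-T with trauma replicate 3. It was 0 with the oligodendrocyte covariate and 8 when only the compared groups were fitted. The median of the 17 genes was 0.71, and that of all genes was 0.15. In the other 4 prefrontal comparisons the count was 0, or 2 for trauma in Res-T without Res-T without trauma replicate 4.

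**Figure D4:**
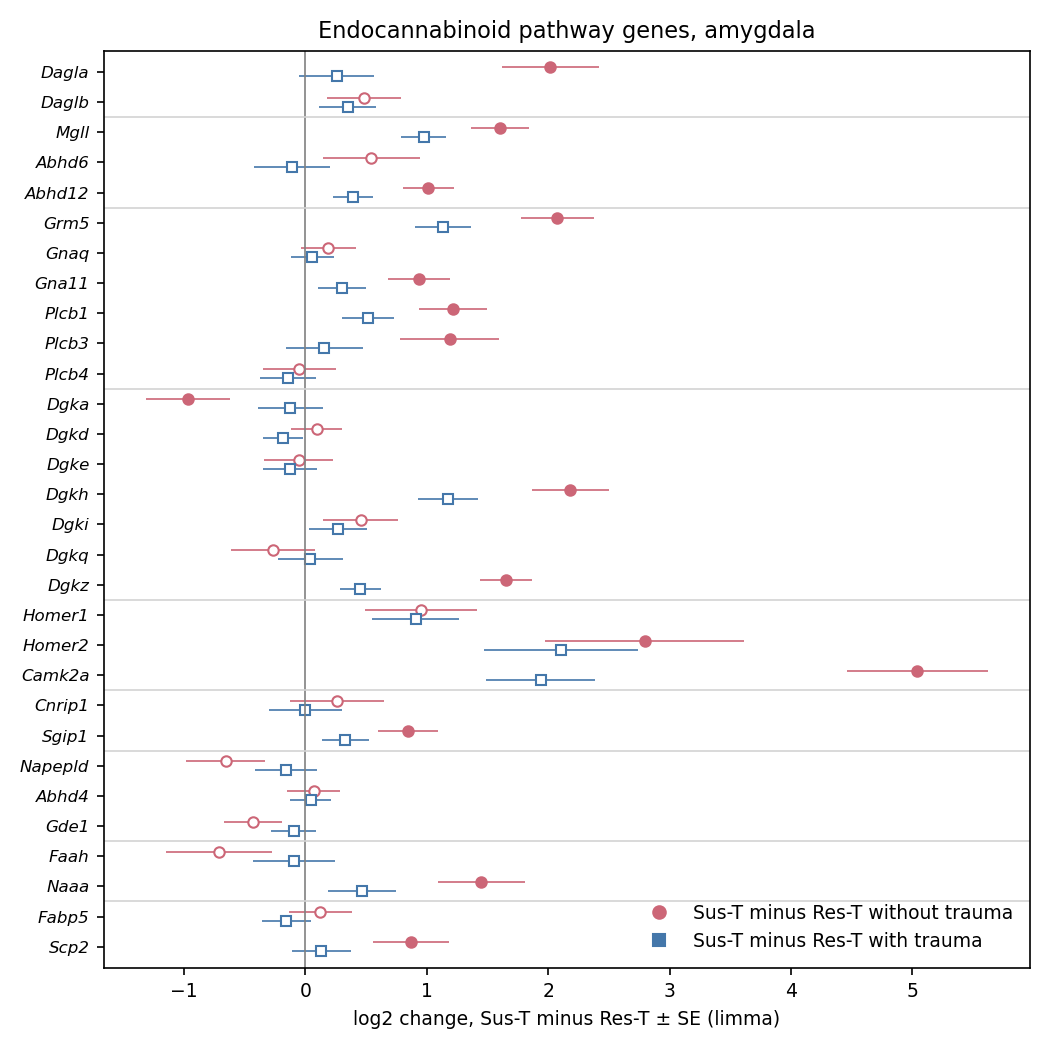
Log2 difference between Sus-T and Res-T for the measured endocannabinoid genes, grouped by list; filled points have a limma adjusted p under 0.05 and open points do not. In the amygdala without trauma, 14 of 30 genes are filled on the higher side and 1 on the lower side.

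Genes whose levels were most like those of the enzymes over the 13 libraries of a region were found by Pearson correlation of log2 values, as a description only, since libraries share groups and preparation. For Dagla in the amygdala they were Anxa6 (r = 0.946, 0.933 within groups), Aass (0.944), Sorbs2 (0.922), Jpt1 (0.921) and Tuba4a (0.92). For Mgll they were Celf2 (0.962, 0.86 within groups), Ptprt (0.959), Sardh (0.957), Ccnd1 (0.956) and Ncan (0.949). The 5 nearest genes of the enzymes did not overlap. Mgll itself had an r of 0.69 with Dagla, and ranked 666 of 9465 genes by it. In the prefrontal cortex the genes most like Dagla were Ccdc171 (r = 0.932), Dyrk2 (0.908), Wnt7a (0.889), Spryd7 (0.885) and Zfp112 (0.883).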

How the data were processed

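The tools named in the submitters' processing notes are bcl2fastq 2.20 and Salmon 1.2, with the build GRCm38.p6. The deposited tables hold a signal in arbitrary units, which the authors normalized by a method not given in the sources used here. The values are not whole numbers, so no count test was used. After subtraction of 1 and logarithms, the values lacked 1 dimension among the amygdala and 2 among the prefrontal libraries. The amygdala Res-T libraries without trauma carried weights up to 0.0002 there, and the others 0.0074 to 0.2731. The fits and permutation tests took no account of the missing dimensions. Their p-values may therefore be too small and the intervals too narrow.

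Symbols, coordinates and sequences came from GENCODE M21 on GRCm38. Of the 9872 amygdala identifiers 9871 matched a symbol, as did all 6080 prefrontal ones, and all entered the fits. Values were analysed as log2(signal + 1) with limma 3.58.1 in R 4.3.3, with 4 group means per region, moderated variances with a trend and robust prior, 5 contrasts, and Benjamini-Hochberg adjustment over all genes of a contrast (threshold 0.05). Fold changes on this scale understate the change of low genes. The code was tested on simulated data. Permutation tests were exact and two-sided, enumerated in Python 3.11.15 with numpy 2.4.6. Correlations and ranks came from scipy 1.17.1. The within-group correlation was planned with resampling and was enumerated in full instead.

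Genes named beside Dagla and Mgll were at most 4 members of each pathway list past the threshold by smallest p, at most 2 for lists with none, the genes Cnr1, Abhd6, Abhd12, Daglb, Faah and Napepld, and the 5 genes most correlated with each enzyme. Cnrip1 was named after its value was seen. The members and lists were chosen with earlier results of these data known. Alternatives were a pseudocount of 10, a mean minimum of 10, no filter on low values, total scaling, quantile normalization and no trend or robust prior. Others were only the compared groups, marker covariates, a replicate block and leaving out each library. The mean minimum of 1 in the main fits removed no gene. The astrocyte covariate and the permutation tests of single genes were added after the data had been seen.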

Additional observations from a re-analysis of the deposited data

Results flagged for a closer look

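The effect of trauma differed between Sus-T and Res-T in the amygdala, by the interaction term of the limma fit, for 3 of the genes described. For Dagla the difference of the effects was -1.76, with 0.74 in Res-T and -1.02 in Sus-T. For Dgkz it was -1.20 and for Camk2a -3.10. All 3 contrasts include the Res-T libraries without trauma, which stood apart in the processing. The same libraries are part of Sus-T against Res-T without trauma, of trauma in Res-T and of the tests over both conditions. Dixon's test at the 95% level, run on Dagla, Mgll and their ratio in the groups of 4 libraries (8 tests), marked no library. Smaller groups, Dgkz and Camk2a were not so tested.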

How the results depend on the processing

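Of 360 alternative values of single results, 317 kept their direction and side of the threshold and 24 lost the threshold. Another 5 gained it and 14 reversed. Most single results were not past the threshold in the main analysis and so could not lose it. Of the losses, 14 were for the Dagla difference of trauma effects and 8 for Dagla over both conditions in the amygdala. Dagla and Mgll in the amygdala without trauma each lost it 1 time. Fits with no filter on low values are among the 360 and equal the main fits. Of 176 alternative counts of pathway genes, 154 stayed within 1.5 times the reported count and 22 did not. With the oligodendrocyte covariate the amygdala differences without trauma were 3.24 ± 1.10 for Dagla (SE, limma adjusted p = 0.164) and 2.34 ± 0.66 for Mgll (SE, 0.109). That of Mgll with trauma was 1.07 (limma adjusted p = 0.0493), and the Dagla difference of trauma effects was -2.83 ± 1.02 (SE, 0.268). The latter was -1.66 (0.0531) with quantile normalization, -1.76 (0.0663) without trend and robust prior and -1.69 (0.0575) with the astrocyte covariate. Prefrontal Dagla with trauma was 1.003 (0.034) with only the compared groups. Its trauma difference in Res-T turned to 0.086 with quantile normalization, 0.33 with the oligodendrocyte and 0.0105 with the astrocyte covariate, and the difference of effects to -0.19 with the oligodendrocyte covariate. The cause of these changes was not tested.

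Counts of pathway genes were, without trauma in the amygdala, 1 and 8 with the oligodendrocyte and astrocyte covariates, and 3 with trauma with the former. For trauma in Res-T the count was 5 with total scaling. For the difference of effects it was 1 without trend and robust prior and 0 with the oligodendrocyte covariate. In the prefrontal cortex with trauma it was 0 with that covariate and 8 with only the compared groups.

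Leaving out each library in turn gave 1.79 to 2.23 for Dagla and 1.31 to 1.90 for Mgll in the amygdala without trauma (adjusted p at most 0.0158), 0.90 to 1.09 for Mgll with trauma, and -1.97 to -1.51 for the Dagla difference of effects. Over both conditions it gave 1.02 to 1.26 for Dagla, 1.14 to 1.44 for Mgll and 0.71 to 1.12 for prefrontal Dagla. Prefrontal Dagla ran from -0.46 to 0.36 for trauma in Res-T, -0.10 to 0.36 in Sus-T, -0.23 to 0.59 for the difference of effects and 0.77 to 1.22 for Sus-T against Res-T with trauma. Pathway counts ran from 9 to 13 and from 0 to 2 in the amygdala without and with trauma, 1 to 3 for trauma in Res-T, 0 to 3 for the difference, and in the prefrontal cortex 1 to 3 with trauma and 0 to 2 for trauma in Res-T. A group left with 1 library was assumed to vary like the others.

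Replicate numbers were not seen to pair the samples: correlations of 21 same-numbered pairs ran from -0.33 to 0.35, and 5 were over 0.1. In 4 of the pairs each library was the best match of the other. These are deviations from the means of small groups, so the check cannot exclude pairing. With a replicate block the amygdala differences without trauma were 2.06 for Dagla (adjusted p = 8.1e-04) and 1.54 for Mgll (6.8e-04), Mgll with trauma was 0.97 (0.0634), and the Dagla difference of effects was -1.81 (0.035). The block changed no call of Dagla or Mgll. Depth is not known, which leaves the error of low signals to the spread between libraries.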
